A study of Mus musculus with 2 samples.

Results

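The genes of the cytoplasmic ribosomal proteins were described in a map of DNA break ends from mouse spleen B cells. The set held every protein-coding gene on chromosomes 1 to 19 of the mm10 RefSeq annotation whose symbol was Rpl or Rps followed by a digit, together with Rplp0, Rplp1, Rplp2 and Rpsa. Kinases of the Rps6k type, Rps19bp1, pseudogenes and ribosomal protein-like genes were left out. This gave 76 genes of the 20665 protein-coding genes on these chromosomes. By symbol alone, 41 were assigned to the large subunit, 32 to the small subunit and 3 to the stalk of the large subunit. The members lay on 18 chromosomes, 14 of them on chromosome 7.

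END-seq was the assay: cells are embedded in agarose, and the ends of double-strand breaks are joined to adapters and sequenced, so that the first base of each read marks an end and the read's strand tells which side of the break it came from. The cells were primary B cells that do not carry CD43, purified from spleens of mice aged 4 to 8 weeks. In 1 library the cells had been activated for 24 to 28 h by 1 µg/mL anti-CD40 together with IL-4 at 25 ng/mL, and are labelled S phase. In the other library they were kept without these factors and are labelled quiescent, G1 phase. Both titles carry the prefix ATR+c, which the labels do not explain, and no strain or genotype is named. Phase, activation and library cannot be told apart, so each ratio below describes these libraries and no test was possible.

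Ribosomal proteins join the ribosomal RNAs to build the small and large subunits of the ribosome, and in growing cells their genes are among the most heavily transcribed. The genes are short, their promoters usually lack a TATA box, and transcription begins within a run of pyrimidines that the mRNA keeps as a terminal oligopyrimidine tract. Through this tract the translation of these mRNAs follows growth signals, and resting B cells enlarge and make more ribosomes when they are activated before they divide.

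Reads were counted on each gene with 2 kb on each side (the gene window) and scaled to the reads on chromosomes 1 to 19, which numbered 20543572 for S phase and 26889564 for G1 phase. These lay on 7087979 and 6738117 strand-specific positions, at 2.90 and 3.99 reads per position. The sources used here describe no molecular identifiers, so stacked reads may be copies of 1 molecule. All intervals given here are exact 95% intervals that cover counting error only. A level is given in RPM, reads per 1000000 reads on these chromosomes. A ratio is the S-phase level over the G1 level, so that equal read counts give a ratio of 1.31. Where no read was counted, the level can be as high as 0.146 RPM (S phase) or 0.112 RPM (G1), which equals 3 reads.

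The break ends at these genes gathered in front of the transcription start, and 6 promoters are printed here because the results turn on them. Rpl13a and Rplp0 held the most reads at their starts, Rpl14, Rps24 and Rpsa held many reads with a clear excess in the S-phase library, and Rps7 was the 1 member whose window was lower in S phase by the fold used here; they were chosen after their values were seen. Each sequence is that of RefSeq for the assembly GRCm38.p6, runs from 230 bases before the gene start to the 20th base from it in the direction of the gene, and shows in capitals the 11 bases centred on the position with the most read ends of both libraries.
Rpl13a: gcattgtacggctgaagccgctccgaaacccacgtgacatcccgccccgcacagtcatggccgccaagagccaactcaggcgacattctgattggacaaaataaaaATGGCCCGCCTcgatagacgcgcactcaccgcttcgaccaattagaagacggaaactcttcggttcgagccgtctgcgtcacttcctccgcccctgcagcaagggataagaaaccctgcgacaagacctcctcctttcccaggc
Rplp0: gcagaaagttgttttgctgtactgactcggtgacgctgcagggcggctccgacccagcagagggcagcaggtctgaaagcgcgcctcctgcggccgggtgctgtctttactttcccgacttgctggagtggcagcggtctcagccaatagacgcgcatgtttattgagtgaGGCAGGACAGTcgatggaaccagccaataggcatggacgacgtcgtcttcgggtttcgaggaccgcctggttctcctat
Rpl14: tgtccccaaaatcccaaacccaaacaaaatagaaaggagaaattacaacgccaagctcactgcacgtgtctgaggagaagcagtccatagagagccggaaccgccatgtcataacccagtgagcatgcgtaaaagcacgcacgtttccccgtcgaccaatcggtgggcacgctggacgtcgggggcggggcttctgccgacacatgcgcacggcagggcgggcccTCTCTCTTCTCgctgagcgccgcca
Rps24: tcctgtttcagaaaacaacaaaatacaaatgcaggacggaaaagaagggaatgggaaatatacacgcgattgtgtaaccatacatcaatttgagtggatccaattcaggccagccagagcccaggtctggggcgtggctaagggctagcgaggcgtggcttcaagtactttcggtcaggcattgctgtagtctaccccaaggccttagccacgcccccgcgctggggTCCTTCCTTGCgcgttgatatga
Rpsa: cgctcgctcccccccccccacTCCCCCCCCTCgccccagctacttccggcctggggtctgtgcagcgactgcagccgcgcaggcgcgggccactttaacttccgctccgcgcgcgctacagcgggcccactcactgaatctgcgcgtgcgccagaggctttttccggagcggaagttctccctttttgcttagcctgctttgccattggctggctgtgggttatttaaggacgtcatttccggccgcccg
Rps7: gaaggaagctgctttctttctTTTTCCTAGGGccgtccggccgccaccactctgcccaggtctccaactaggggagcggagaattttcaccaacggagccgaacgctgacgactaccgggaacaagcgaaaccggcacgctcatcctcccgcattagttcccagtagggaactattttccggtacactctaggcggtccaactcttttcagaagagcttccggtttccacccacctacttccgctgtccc
The Rpl13a sequence is chr7:45128726-45128975 on the minus strand and held 267 S-phase and 227 G1 reads. The Rplp0 sequence is chr5:115559237-115559486 on the plus strand, with 235 and 210 reads. The sequence of Rpl14 is chr9:120571287-120571536 on the plus strand, with 188 and 108 reads, and that of Rps24 is chr14:24490448-24490697 on the plus strand, with 81 and 41. All of these held reads of either library in numbers that allow the positions to be compared. The Rpsa sequence is chr9:120127536-120127785 on the plus strand and held 116 S-phase and 51 G1 reads. The Rps7 sequence is chr12:28635934-28636183 on the minus strand and held 1 S-phase and 24 G1 reads, a ratio of 0.0545 (0.00133 to 0.334). For Rps7 and Rps24 the printed stretch leaves out many reads near the start. Within 500 bases of the start Rps7 held 22 S-phase and 47 G1 reads, a ratio of 0.613 (0.352 to 1.04), and Rps24 held 170 and 93.

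The positions differed from promoter to promoter, and single bases held a large part of the reads. Positions are counted from the first base of the gene, which is 0, with negative values upstream. In Rplp0 position -54, on the strand opposite to the gene, held 64 S-phase and 70 G1 reads, so the same base was the fullest in both libraries. In Rpl13a position -119, again on the opposite strand, held 60 S-phase and 22 G1 reads. In Rpl14 the annotated first base of the gene held 38 and 28 reads on the gene strand. Its capitals consist of C and T alone, the composition of a terminal oligopyrimidine tract. In Rps24 the fullest position was 2, with 19 S-phase and 16 G1 reads on the gene strand, also within a run that is mostly C and T.

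In Rpsa the fullest position lay in a run of C about 200 bases before the start, where neighbouring bases were used in the 2 libraries. Position -204 held 20 S-phase and 1 G1 reads, and position -202 held 1 in S phase and 15 in G1, all on the gene strand. A comparison base by base would read these as opposite differences, while the run as a whole held reads of both libraries. In Rps7 no position was used in both libraries, and its 24 reads in G1 lay on 5 positions, so few separate ends stand behind the difference. Its capitals mark position -204 on the opposite strand, with 0 S-phase and 7 G1 reads. Position 7 on the gene strand held as many.

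**Figure D1:**
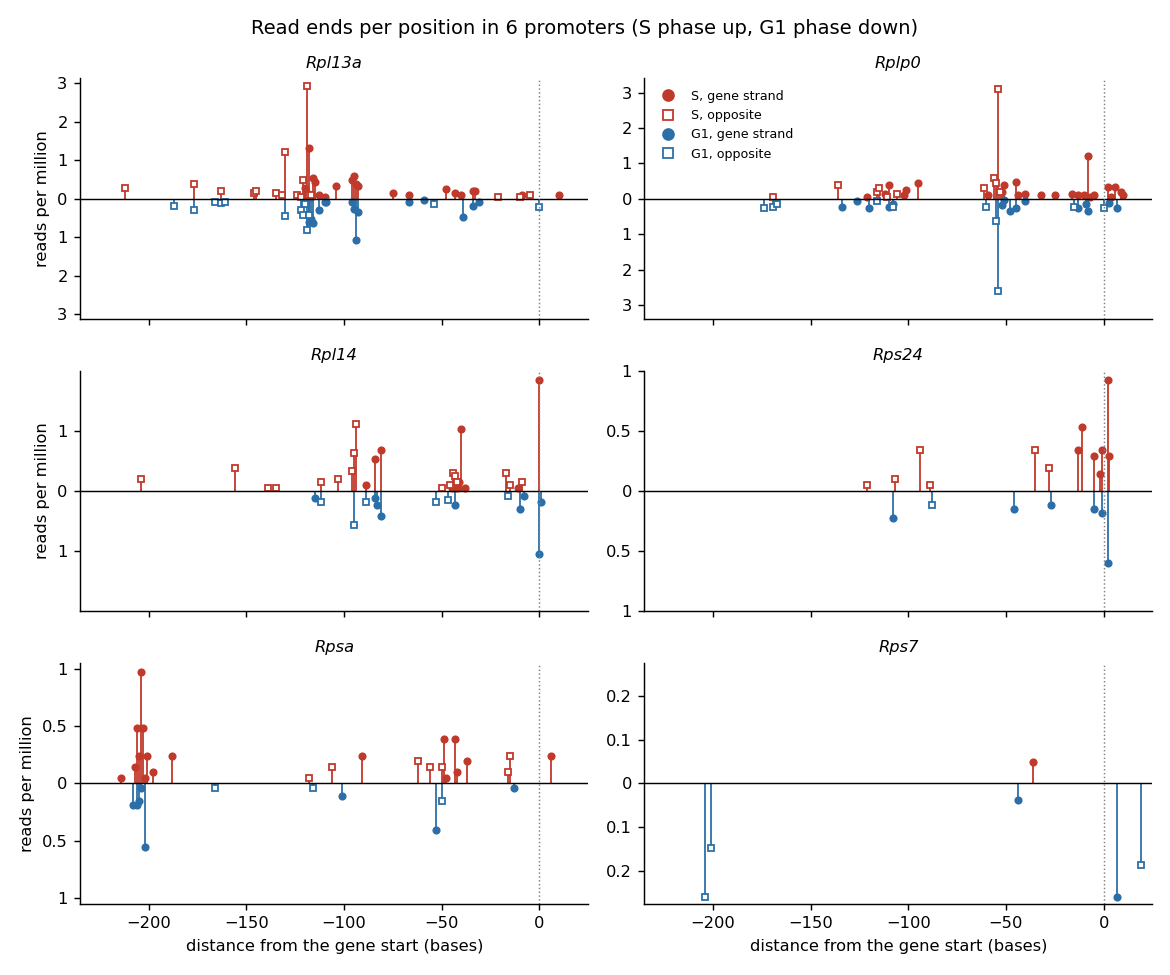
Read ends per position (RPM) against the distance in bases from the gene start for the 6 printed promoters, S phase above and G1 phase below the line, with filled points for the gene strand and open squares for the opposite strand; the vertical scale differs between panels. Rplp0 has the same fullest position in both libraries (64 and 70 reads), while Rpsa has a cluster about 200 bases before the start and Rps7 has 1 read in S phase.

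Short motifs were counted in the RefSeq promoters of the 56 members for which the reference table gives a strand and a start, in 300 bases from 250 before to 50 after the start. The letters CCGGAA, the core of sites for ETS factors, were found on either strand in 28 of 56 members (50%), against 19.6% of 16457 promoters of protein-coding genes. The letters ATGGCGG, the core of YY1 sites, were found in 9 members (16.1%) against 5.51%. The letters TATAAA were found in 4 members (7.14%) against 13.5%. On the gene strand the letters CTTTC lay within 10 bases of the start in 11 members (19.6%) against 2.45%. Among the printed sequences, Rpl14 holds CCGGAA at -136 and ATGGCGG at -130, Rps7 holds CCGGAA at -54 and -13, and Rpsa holds CCGGAA at -187, -69 and 7. The matches of Rps7 and Rpsa lie on the opposite strand and are printed as TTCCGG. The ATGGCGG of Rpl14 does too and is printed as CCGCCAT. Members had a median of 21.5 CpG pairs and 58.7% GC in these 300 bases, against 14 and 56.7% for all promoters. A match describes letters and not binding.

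Within 500 bases of the start, the 56 members held 3101 S-phase and 2540 G1 reads, a ratio of 1.60 (1.52 to 1.68). In the rest of their windows they held 3792 and 4535 reads, a ratio of 1.09 (1.05 to 1.14). The ratio was thus higher around the start, while the interval for the rest of the windows also lay above 1. The same split was seen over the 16277 protein-coding genes with a start and at least 50 reads, members included, at 1.49 at the start and 1.03 in the rest, and over those of at most 10 kb, at 1.40 and 1.09. Counted as positions, with each covered position taken once, the members' starts held 820 and 499, a ratio of 1.56 (1.40 to 1.75), against 1.43 for all genes. Without the 3 members with the most reads at the start the ratio was 1.58, and with reads per position capped at 23 in S phase and 29 in G1 it was 1.56.

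A larger part of the signal lay at the start in the members than in other genes. The start region held 45.0% of the window's reads in S phase and 35.9% in G1 over the 56 members, against 29.4% and 24.5% over genes of at most 10 kb and 8.18% and 5.83% over all genes, whose windows are longer. The median member had 2.04 RPM at its start in S phase and 1.25 RPM in G1, while the median protein-coding gene had 0.633 and 0.483 RPM. At least 20 reads of both libraries together lay at the start of 49 of 56 members (87.5%), against 60.4% of all genes and 54.2% of genes of at most 10 kb. Related genes had similar shares, with 62 of 69 mitochondrial ribosomal protein genes (89.9%) and 32 of 35 translation factor genes (91.4%). Another protein-coding gene ended or began within 1 kb of the start in 14 members (25%), against 14.5% of all genes and 15.2% of short ones. Without those members the ratio at the start was 1.60.

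Of the 49 members with at least 20 reads at the start, 45 had a ratio above 1 (91.8%), against 73.1% of the 9839 genes with as many reads and 66.5% of those of at most 10 kb. A ratio of at least 1.5 was found in 25 members (51.0%), close to the 47.5% of all genes, and against 41.5% of short ones. A ratio of at most 1/1.5 was found in 1 member, Rps7, against 14.6% and 19.5%. The share with a large ratio was near the background, and the share on the lower side was below it. In 37 of the 49 (75.5%) the ratio at the start was above that in the rest of the window, against 66.9% of all genes.

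The profile around the start was narrow. From 100 to 1 bases before the start the members held 1168 S-phase and 881 G1 reads, or 1.02 and 0.585 RPM per gene, a ratio of 1.74 (1.59 to 1.90). The 100 bases upstream of these held 632 and 468 reads, a ratio of 1.77 (1.57 to 2.00), and the first 100 bases of the gene held 578 and 464, a ratio of 1.63 (1.44 to 1.85). In the next 100 bases the counts dropped to 73 and 77 reads and the ratio to 1.24 (0.888 to 1.73). The peak therefore ended within the first 100 to 200 bases of the transcribed part. All genes had ratios of 1.60 in the 100 bases before the start, 1.51 upstream of these and 1.54 in the first 100 bases. The members' ratios in bins farther out rested on few reads and varied in both directions. They ran from 0.536 (0.323 to 0.867) at 1000 to 1099 bases to 4.83 (2.74 to 8.99) at 800 to 899 bases.

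The strands were offset from each other. Within 500 bases of the start, reads on the gene strand had a median position of -40 in S phase and -35 in G1, and reads on the opposite strand of -89 and -88. On the opposite strand 80.8% of the reads in S phase and 80.9% in G1 lay upstream of the start, and on the gene strand 65.4% and 60.3%. All protein-coding genes had about the same medians, -43 and -45 on the gene strand and -94 and -95 on the opposite strand. The location of the ends was thus near that of other genes, and the members' mean height was above that of all genes. Mean start levels were 2.70 RPM (S phase) and 1.69 RPM (G1) for members, against 1.74 and 1.17 for all genes. This was not particular to members: mitochondrial ribosomal protein genes had means of 2.89 and 1.91, and translation factor genes 3.21 and 1.82. Their S-phase medians, 1.56 and 1.66 RPM, were below the members' 2.04.

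**Figure D2:**
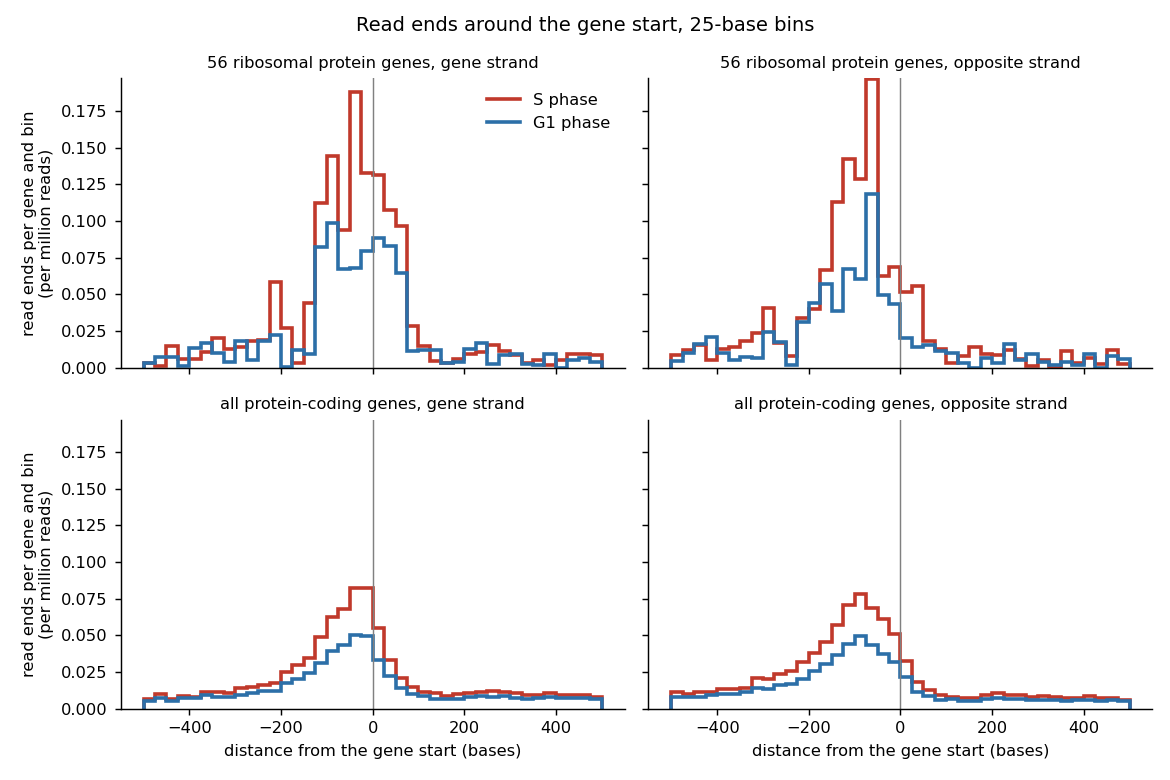
Read ends per gene in bins of 25 bases (RPM) against the distance from the gene start in bases, for 56 ribosomal protein genes (top) and all protein-coding genes (bottom), gene strand at left and opposite strand at right, S phase in red and G1 phase in blue. The peaks of the members are higher than those of all genes and lie upstream of the start, with the median distance on the opposite strand farther out (-89 in S phase) than on the gene strand (-40).

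Only part of the positions was used in both libraries. At the members' starts 126 strand-specific positions were covered in both, which is 15.4% of the positions of the S-phase library and 25.3% of those of the G1-phase library. They carried 28.2% and 35.9% of the reads. Over all genes the shares of positions were 15.0% and 22.6%. The level at the start was nonetheless similar in rank: over the 56 members, Spearman's rho between the libraries was 0.85, a description of points that share gene, base composition and mapping. The ratio at the start and the ratio in the rest of the window had a rho of -0.016 over 49 members.

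Single members differed widely at the start, and those given here by start counts were chosen after their values were seen. Rpl13a, a large subunit protein also known for a regulatory role outside the ribosome, was highest, with 298 S-phase and 239 G1 reads, or 14.5 and 8.89 RPM, a ratio of 1.63 (1.37 to 1.94). Rplp0, the scaffold of the stalk, had 254 and 228 reads, a ratio of 1.46 (1.21 to 1.75). Both were far above the median member in either library.

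Rps24, a small subunit protein whose gene is mutated in some patients with Diamond-Blackfan anaemia, had 170 S-phase and 93 G1 reads at the start, a ratio of 2.39 (1.85 to 3.11). Rpl14 of the large subunit had 196 and 122 reads, a ratio of 2.10 (1.67 to 2.66). Rpsa, a small subunit protein also called the laminin receptor, had 132 and 77 reads, a ratio of 2.24 (1.68 to 3.01). These had ratios above the pooled value of the members. Rps2, of the small subunit, had 111 and 57 reads at the start, a ratio of 2.55 (1.84 to 3.57), but 38 and 117 in the rest of its window, a ratio of 0.425. Its window as a whole, with 149 and 174 reads and a ratio of 1.12, showed neither side. Rpl37 of the large subunit had 117 reads at the start in S phase and 121 in G1, a ratio of 1.27 (0.973 to 1.65).

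The highest ratios at the start came from members with few reads in G1. Rps28 of the small subunit had 48 reads on 15 positions in S phase and 11 reads on 3 positions in G1, a ratio of 5.71 (2.92 to 12.2). Rpl28 had 30 and 8 reads, the latter on 1 position, and a ratio of 4.91 (2.20 to 12.4). Rps15 had 43 and 13 reads and a ratio of 4.33 (2.29 to 8.78). The intervals of these members were wide and do not include the effect of stacked reads. At the other side, Rps7 had 22 reads on 5 positions in S phase and 47 on 9 in G1, a ratio of 0.613 (0.352 to 1.04), and Rps9 had 47 and 73 reads, a ratio of 0.843 (0.571 to 1.23). Neither interval excluded 1. Rps9 had the opposite in the rest of its window, with 104 and 64 reads and a ratio of 2.13.

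Some members held almost no ends at the annotated start. The 3 retrogenes, copies made through an RNA, had 5 and 3 reads (Rpl37rt), 5 and 6 (Rps23rg1) and 4 and 8 (Rps27rt). Rps6, the small subunit protein phosphorylated by S6 kinases, had 8 and 4 reads. Rpl22, a large subunit protein with roles in lymphocyte development, had 0 and 0 reads at the start nearest its boundary. At its other listed start, 1290 bases inside the gene, it had 55 S-phase and 21 G1 reads. The annotated start thus decided whether a peak was counted for this gene.

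**Figure D3:**
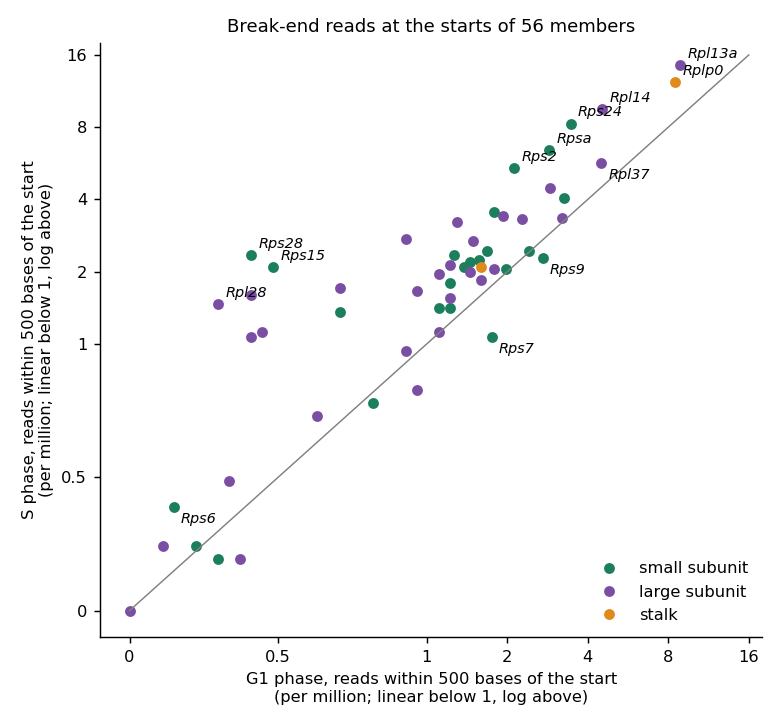
Level within 500 bases of the gene start (RPM) in the S-phase library (vertical) against the G1-phase library (horizontal) for 56 members, coloured by subunit, with both axes linear below 1 and logarithmic above and a line at equal levels. Rpl13a (14.5 and 8.89) and Rplp0 are highest, most members lie above the line, and Rps7 and Rps9 lie below it.

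For the other 20 members the reference table gives no strand, so the end of the gene with more reads was taken. Those ends held 678 S-phase and 585 G1 reads, a ratio of 1.52 (1.36 to 1.70), and the opposite ends held 179 and 227, a ratio of 1.03 (0.844 to 1.26). Since the end was picked by its reads, these are descriptions. Rpl17 had 17 reads at its fuller end in S phase and 0 in G1, at least 7.42-fold higher against the limit of 3 reads.

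Over whole windows the members held 8787 S-phase and 8924 G1 reads, a pooled ratio of 1.29 (1.25 to 1.33), on 2841 and 2063 positions, a ratio of 1.31 (1.24 to 1.39). The windows of a pair of members overlap, so their shared reads were counted in both. A member had 25 to 384 reads in S phase, with a median of 103.5, and 32 to 328 in G1, with a median of 107, so a single member's ratio carried a wide interval. The median log2 ratio, with a pseudocount of 1, was 0.35, against 0.15 for the 20357 protein-coding genes with at least 50 reads and 0.17 for the 7078 of at most 10 kb. All 76 members reached 50 reads. Without the start region the median of the 56 members was 0.12, near the 0.10 of all genes.

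A ratio of at least 1.5 was reached by 18 of 76 members (23.7%), against 12.3% of all protein-coding genes, but against 22.3% of those of at most 10 kb, so for short genes the share was near the background. A ratio of at most 1/1.5 was found in 1 member (1.32%), against 4.16% of all genes and 10.5% of short ones. The ratio was above 1 in 62 members (81.6%), against 67.9% and 62.6%. The counting interval lay above 1 in 34 members (44.7%), against 37.6% and 31%. It lay below 1 in 3 members, Rps7, Rpl36 and Rpl38, against 10.7% of all genes. When each position was taken once, the intervals of these 3 members included 1. With positions counted once, 21 members (27.6%) reached 1.5, against 11.4% of all genes and 20.7% of short ones, and 64 (84.2%) lay above 1, against 73.4% and 66.4%. A ratio of at least 2 was found in 4 members (5.26%), Rpl7, Rpl15, Rps29 and Rpl14, against 2.57% and 6.34%. The members' distribution was thus shifted by a small amount, with few members on the lower side. Genes of at most 10 kb had fewer reads, with medians of 68 in S phase and 82 in G1 against the members' 103.5 and 107. Fewer reads widen both tails, and how far this set the shares past the limits was not tested.

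**Figure D4:**
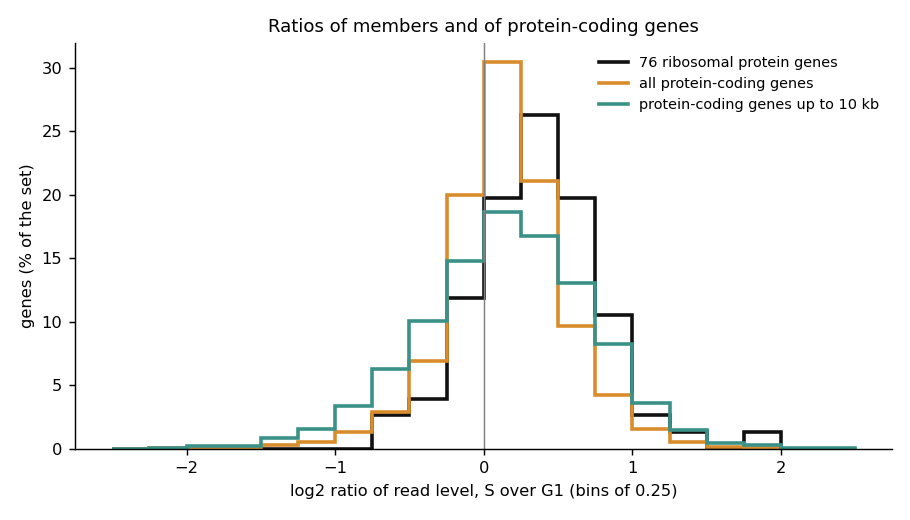
Distribution of the log2 ratio of read level, S over G1, in bins of 0.25 as percent of each set, for 76 ribosomal protein genes (black), all protein-coding genes with at least 50 reads (orange) and those of at most 10 kb (green). The members' median of 0.35 lies to the right of those of all genes (0.15) and of short genes (0.17), and the lower tail of the short genes is wider than that of the members. Short genes had fewer reads per window, which widens both tails.

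The surroundings of the members were shifted as well. The 100 kb on each side of the windows had a median log2 ratio of 0.21, against 0.14 around all genes. The difference between a window and its own surroundings had a median of 0.11, against 0.023 for all genes and 0.053 for short ones, and was above 0 in 47 members (61.8%), against 53.1% of all genes. It was not stable: without the flanks its direction turned, at -0.087 against -0.0094 for all genes, and it was 0.38 on the plus strand but 0.0054 on the minus strand, where all genes had 0.021. Scaling to the median protein-coding gene instead of the total lowered the log2 ratio of every gene by 0.21. The members' median was then 0.14 and that of all genes -0.065; a shift common to every gene leaves the gap between them as it was.

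The genome strands were not equal over the members. On the plus strand they held 4658 S-phase and 4273 G1 reads, a ratio of 1.43 (1.37 to 1.49), and on the minus strand 4129 and 4651, a ratio of 1.16 (1.11 to 1.21). On the plus strand alone 36 of 76 members reached 1.5, against 18.7% of all genes and 30.1% of short ones, and 2 lay at or under 1/1.5, against 7.78% and 17.1%. On the minus strand 25 of 76 members did, against 17.6% and 28.1%, and 11 lay at or under 1/1.5, against 7.6% and 16.8%. The plus strand held 53.0% of the members' reads in S phase and 47.9% in G1, while over all genes it held 50.0% and 49.9%. A ratio above 1 on each strand separately was found in 42 of 76 members (55.3%), against 43% of all genes and 38.1% of short ones. The ratios on the strands had a Spearman's rho of -0.049 over 76 members and 0.10 over all 20357 genes.

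The 3 stalk genes had similar ratios. The stalk recruits the translation factors that hydrolyse GTP. Rplp0 had 309 S-phase and 328 G1 reads, a ratio of 1.23 (1.05 to 1.44). Rplp1 had 64 and 60, a ratio of 1.40 (0.966 to 2.02), and Rplp2 had 81 and 83, a ratio of 1.28 (0.929 to 1.76). None of them reached 1.5, and the interval of Rplp0, with the most reads, was the 1 that lay above 1. Over positions the ratio of Rplp0 was 1.18 (0.812 to 1.73).

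The 41 large subunit genes had a median log2 ratio of 0.42, and 12 of them (29.3%) reached 1.5 while 0 lay at or under 1/1.5, against 12.3% and 4.16% of all genes and 22.3% and 10.5% of short ones. Rpl7 (chr1:16101295-16104433) had the highest ratio of all members, 4.05 (2.71 to 6.19), with 102 S-phase and 33 G1 reads. The larger part of the difference lay on the plus strand, with 61 reads against 2, while the minus strand held 41 against 31. The reads lay on 33 and 11 positions, and within 500 bases of its right end were 32 and 3. Rpl15 (chr14:18267823-18270986) had 138 and 68 reads, a ratio of 2.66 (1.97 to 3.61). The excess reached beyond the start, with 103 and 49 reads in the rest of the window (2.75) and 35 and 19 at the start (2.41).

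Rpl14 (chr9:120571517-120574653) had 244 S-phase and 156 G1 reads, a ratio of 2.05 (1.67 to 2.52), and of these 80.3% and 78.2% lay at the start. Rpl17 (chr18:74998978-75003381) had 81 and 58 reads, a ratio of 1.83 (1.29 to 2.61). Rpl3 (chr15:80077781-80083406), a protein near the peptidyl transferase centre, had 146 and 105 reads, a ratio of 1.82 (1.41 to 2.36). All of these intervals, which count reads, lay above 1. Counted as positions, the ratio was 1.80 (1.13 to 2.93) for Rpl3. For Rpl14 it was 1.52 (0.944 to 2.49) and for Rpl17 1.77 (0.916 to 3.57), with intervals that included 1. Rpl26 (142 and 103 reads) and Rpl9 (107 and 78 reads) had ratios of 1.80, as did Rpl11 (135 and 98 reads). Rpl9 reached this outside its start, where it had 65 and 30 reads, while its start had 42 and 48. Rpl23 had 137 and 106 reads and a ratio of 1.69 (1.30 to 2.20).

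Rpl11, Rpl23 and Rpl5 are known for binding the p53 regulator Mdm2 when ribosome assembly is disturbed. Rpl5 differed from the others, with 139 S-phase and 183 G1 reads and a ratio of 0.994 (0.792 to 1.25). Its start held 23 and 12 reads, and the rest of its window 116 and 171. On the lower side of the large subunit were Rpl36 (chr17:56610094-56614246) with 54 and 105 reads (ratio 0.673, 0.476 to 0.943), and Rpl38 (chr11:114667818-114672333) with 71 and 130 reads (ratio 0.715, 0.528 to 0.962). Counted as positions, their ratios were 0.951 (0.517 to 1.75) and 0.887 (0.511 to 1.54), with intervals that included 1. Rpl38 is known for the translation of Hox mRNAs. Rpl34, with 47 and 79 reads (0.779), Rpl37a, with 76 and 115 (0.865), and Rpl31, with 65 and 96 (0.886), had intervals that included 1. Rpl36 stood just outside the lower threshold, as Rpl28, at 1.48, stood just outside the upper one, and Rpl13a at 1.53 just inside it.

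The 32 small subunit genes had a median log2 ratio of 0.33, with 6 (18.8%) at 1.5 or above and 1 at or under 1/1.5, so the share with the higher ratios was below the 22.3% of short genes. Rps29 (chr12:69157722-69159186), mutated in some patients with Diamond-Blackfan anaemia, had 116 S-phase and 64 G1 reads, a ratio of 2.37 (1.73 to 3.27), with a ratio of 2.45 over positions. Rps23, at the decoding centre, had 129 and 95 reads and a ratio of 1.78 (1.35 to 2.34). Rps28 had 79 and 59 reads and a ratio of 1.75 (1.24 to 2.50), while outside its start it had 31 and 48. The start thus carried all of the excess at Rps28.

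Rps7 (chr12:28630847-28635953) had 61 S-phase and 124 G1 reads, a ratio of 0.644 (0.466 to 0.882). It was low on either strand, with 39 against 69 reads on the plus strand and 22 against 55 on the minus strand, and both at the start and in the rest, where it had 39 and 77 reads. Its surroundings had a log2 ratio of 0.32, so the gene lay below them by 0.95. These reads lay on 19 and 29 positions, a ratio of 0.623 (0.330 to 1.15), whose interval included 1. Rps13 had 47 and 78 reads (0.789), and Rps3a1 had 79 and 123 (0.841), with intervals that included 1.

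The small subunit genes Rpsa, Rps14, Rps19 and Rps6, named for roles outside the ribosome or in its failure, had ratios between 0.904 and 1.44. Rpsa had 280 S-phase and 254 G1 reads, a ratio of 1.44 (1.21 to 1.72). Rps14, whose loss causes the anaemia of a form of myelodysplasia, had 97 and 116 reads, a ratio of 1.09 (0.827 to 1.45). Rps19, the gene most often mutated in Diamond-Blackfan anaemia, had 125 and 154 reads, a ratio of 1.06 (0.832 to 1.35). Rps6 had 58 and 84 reads, a ratio of 0.904 (0.635 to 1.28). Of these, Rpsa alone had an interval above 1, and over positions its ratio was 1.27 (0.887 to 1.82).

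**Figure D5:**
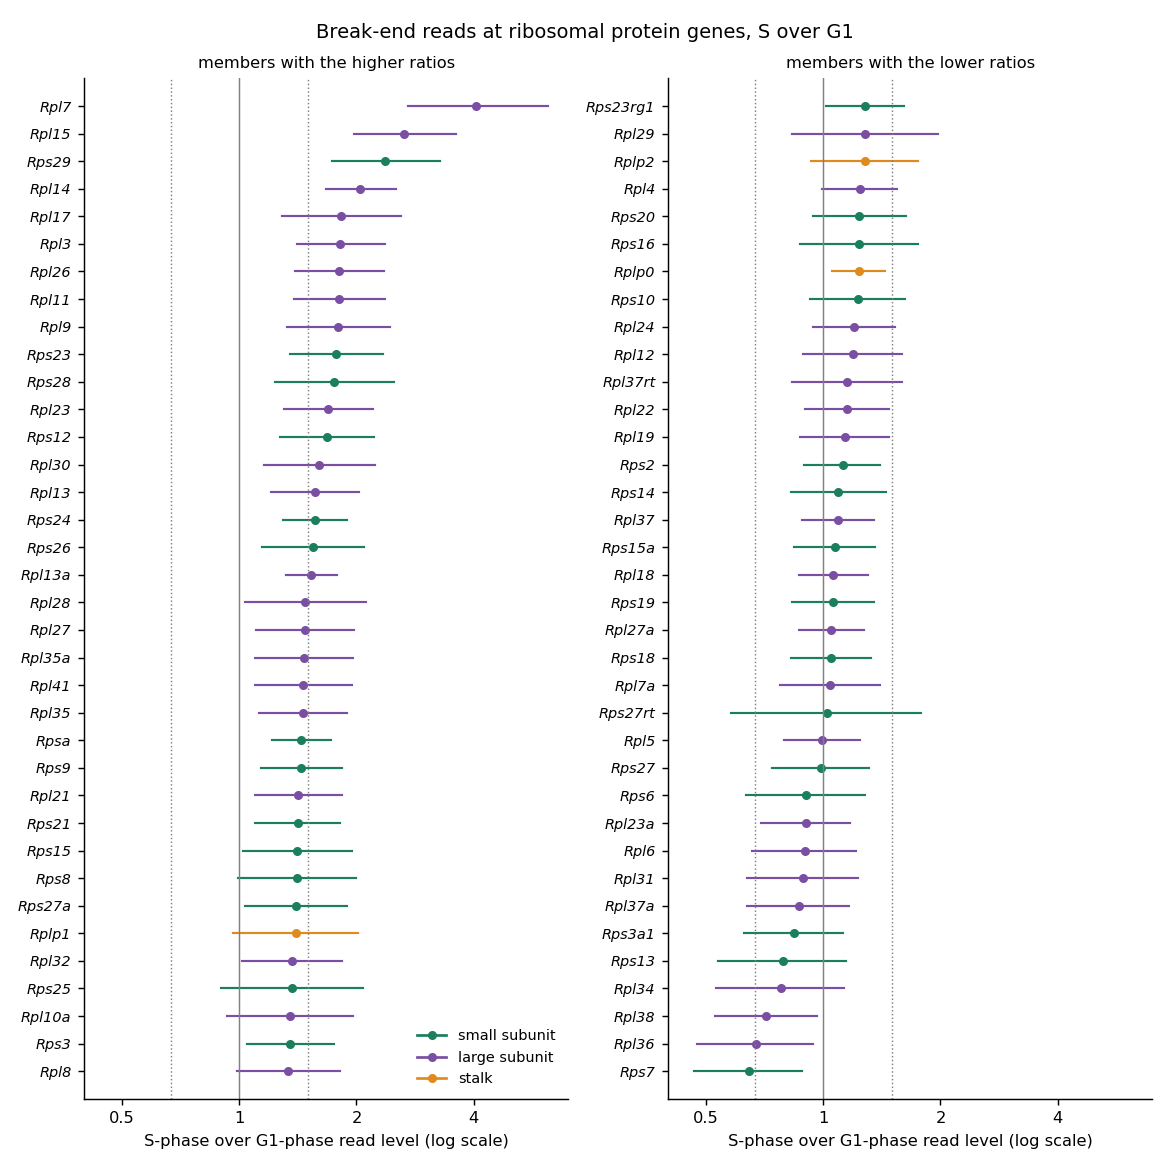
Ratio of read level in the gene window, S over G1, on a log scale for 72 of the 76 members with its exact 95% counting interval, coloured by subunit, in order from the highest (Rpl7, left panel) to the lowest (Rps7, right panel). Dotted lines mark 1.5 and 1/1.5; 18 members lie at or above the upper one and 1 at or under the lower one.

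The density of reads, the level per kb of window, was above that of other genes in both libraries. The median member had 0.703 RPM per kb in S phase and 0.511 in G1, against 0.402 and 0.371 for all genes and 0.415 and 0.388 for short ones. Rpl13a was highest in each library, at 2.60 and 1.70 RPM per kb, followed by Rplp0 at 1.82 and 1.48. Rpl14 (1.66), Rpsa (1.58) and Rpl27a (1.34) came next in S phase. In G1 the next were Rpl27a (1.28), Rpl37 (1.12) and Rpsa (1.10). The 5 highest members of the libraries thus shared Rpl13a, Rplp0, Rpl27a and Rpsa.

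The lowest densities in S phase were those of Rps27rt (0.278 RPM per kb), Rpl34 (0.302), Rpl37rt (0.317), Rpl36 (0.322) and Rps7 (0.326). In G1 they were those of Rpl7 (0.172), Rpl29 (0.256), Rpl17 (0.257), Rps25 (0.261) and Rps27rt (0.272). Rpl7 and Rpl17 thus had low G1 levels behind their high ratios, and Rps7 and Rpl36 low S-phase levels behind their low ones. Over the 76 members Spearman's rho of the density between the libraries was 0.72.

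Single positions with the most reads lay in Rplp0 (64 in S phase and 70 in G1), Rpl13a (60 and 29), Rpl14 (38 and 28), Rps2 (29 and 11), Rpl18 (18 and 27) and Rps23 (9 and 23), the highest of each library wherever in the window it lay. In Rpl14 that position held 15.6% of the window's reads in S phase.

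Introns of ribosomal protein genes often carry small nucleolar RNA genes, and 57 of these lay inside 28 members. Those members had a median ratio of 1.24 and the other 48 a median of 1.35, with 7 (25.0%) and 11 (22.9%) members at 1.5 or above, both near the 22.3% of short genes. In 39 members (51.3%) an end of another protein-coding gene lay in the window, against 36.5% of genes with at least 50 reads (7440). Reads at such windows cannot be assigned to 1 gene.

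Lists of genes of related function were set beside the members. The 78 mitochondrial ribosomal protein genes, which serve the organelle's own ribosome, had a median log2 ratio of 0.31, with 19 (24.4%) at 1.5 or above and 1 at or under 1/1.5, against 12.3% and 4.16% of all genes, and a pooled ratio at the start of 1.51. The 45 translation factor genes had a median of 0.34, with 12 (26.7%) and 0, and a ratio at the start of 1.76. Among these, the poly(A)-binding protein gene Pabpc1 had 359 S-phase and 240 G1 reads (1.96), the elongation factor gene Eef1a1 had 147 and 125 (1.54), and the cap-binding repressor gene Eif4e2 had 249 and 425 (0.767). Of the ribosomal proteins with other names, Rack1 had 142 and 100 reads (1.86) and Fau 73 and 76 (1.26). Medians of these lists were thus near the members' 0.35.

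Ribosomal protein pseudogenes had lower values than the genes. Of 284 with -ps in the symbol, 257 had at least 50 reads, and their median log2 ratio was 0.0048, with 53 (20.6%) at 1.5 or above and 41 at or under 1/1.5. All 8595 pseudogenes with as many reads had a median of -0.013, with 18.2% and 18.3% past these limits. The density of the 257 was 0.356 RPM per kb in S phase and 0.336 in G1, below that of the members. Processed pseudogenes copy the exons of these genes, and how reads that match several places were placed is not given in the sources used here, so the exon counts of members are uncertain for that reason. Of 7 ribosomal protein-like paralogs found, Rps27l had a ratio of 1.54 and Rpl10l, a gene of the testis, 32 and 89 reads and a ratio of 0.471 (0.304 to 0.712). The X-linked ribosomal protein genes, outside the rule, had ratios of 0.894 (Rpl39), 1.39 (Rpl10), 1.79 (Rps4x) and 1.31 (Rpl36a).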

How the data were processed

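Each library came as a pair of tracks, 1 per strand. The values the authors deposited are counts of read ends at each base, as whole numbers, and per the file headers and the values no normalization was applied. The submitters' processing notes name mm10 and the tools bedtools, SAMtools 1.11 and Bowtie 1.1.2. Settings and the handling of duplicates were not given in the sources used here.

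Python 3.11.15 with numpy 2.4.6, pandas 2.3.3 and scipy 1.17.1 summed the counts, and matplotlib 3.10.9 drew the plots. Gene positions, strands and starts came from RefSeq tables of GRCm38.p6. Where a gene had several starts, the one nearest its boundary was used. Intervals of ratios are exact at 95%, conditional on the sum of both Poisson counts. The code was checked on simulated Poisson counts without stacked reads, which cannot show how the intervals hold for stacked reads. There was 1 library per group, hence no test. Calls needed at least 50 reads in the window, or 20 at the start, and a ratio of 1.5.

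Genes were named by rule: the 12 highest and 8 lowest ratios, the 5 highest and 5 lowest densities in each library, the 6 members with the fullest positions, overlapping windows, the stalk genes and 6 members known for other roles. Some genes are counted but not reported by name here. The members, lists and rules were chosen with earlier results of these data known. Flanks, counting, scaling, strand, thresholds and start settings were varied.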

Additional observations from a re-analysis of the deposited data

How the results depend on the processing

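No paired analysis was possible because each group had 1 library and the labels give no replicate numbers. For the median log2 ratio (0.35), the value was 0.16 without flanks, 0.14 when scaled to the median protein-coding gene, 0.49 on the plus strand alone and 0.12 without the start region. Of the other alternatives, 8 left it within the 95% order-statistic interval of the median. Members at 1.5 or above (18) numbered 10 with flanks of 5 kb (8.69% of all genes), 11 when scaled to the median gene (5.67%), 36 on the plus strand (18.7%) and 4 at a ratio of 2 (2.57%). Members at or under 1/1.5 (1) numbered 2 of 60 without flanks (3.64% of all genes), 0 with flanks of 5 kb (2.43%), 3 when scaled to the median gene (8.02%), 2 on the plus strand (7.80%), 11 on the minus strand (7.57%) and 0 at a ratio of 2 (1.09%). Members above 1 on both strands (42 of 76, 55.3%) numbered 22 of 60 without flanks, against 39.7% of all genes. The median difference from the surroundings (0.11) was reversed without flanks, at -0.087, and was 0.38 from plus-strand reads alone and 0.0054 from minus-strand reads (all genes 0.021). The median density in S phase (0.703 RPM per kb) was 0.568 without flanks, 0.567 with flanks of 5 kb and 0.759 with capped stacks. In G1 (0.511) it was 0.456 with flanks of 5 kb and 0.555 with capped stacks. The ratio at the start (1.60) was 1.69 within 200 bases, and 6 other settings left it within its interval. The gene body without flanks leaves out the upstream side of the start; beyond that the causes were not tested. The start settings without the fullest members, without close gene ends, at the gene boundary and with capped stacks, and those without the start region and the retrogenes, were chosen after seeing the data.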
